A study of Mus musculus with 24 samples.

Results

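Serpina3n, Serpina3m, Serpina3f, Serpina3g and Serpina3i of the Serpina3 gene cluster and the acute-phase genes Lcn2, Saa3 and Hp were followed through 24 choroid RNA libraries. These 8 genes were taken by name from the 56065 genes measured. They were chosen by the laser contrast of these same libraries, in which Serpina3n was much higher after laser treatment, so the laser values of the 8 genes are given as a description, without a test. Choroid came from wild type and Ceacam1-/- littermates on a C57BL/6J background. The deletion removes the first exons of Ceacam1, an adhesion molecule of epithelial, endothelial and immune cells, in every cell of the animal. There were 4 wild type and 4 Ceacam1-/- libraries without laser, and 9 wild type and 7 Ceacam1-/- libraries with laser. The laser protocol, which induces choroidal neovascularization, placed 6 spots of 150 mW, 200 µm and 100 ms on each eye. The study's methods describe young adult mice of both sexes, but the labels give no age, no sex, no time after laser and no number that ties a library to an animal. The p-values therefore measure only the spread between these libraries. Values are normalized counts, which are estimated reads divided by factors for library size and transcript length. They summed to between 23704346 and 35094410 per library.

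Acute-phase proteins are made in large amounts in the liver during inflammation, and several are also made locally in injured tissue. Interleukin-6 type cytokines act on them through the transcription factor STAT3, and interleukin-1 acts through NF-kB and C/EBP factors. Serpina3 genes encode serpins, protease inhibitors that trap their target with an exposed stretch near the end of the protein, the reactive centre loop. In the mouse the family has expanded into a cluster of closely related copies, of which Serpina3n is well known as a gene of reactive astrocytes. Lcn2 encodes lipocalin 2, which binds bacterial iron carriers. Saa3 encodes a serum amyloid A protein made outside the liver, and Hp encodes haptoglobin, which binds free haemoglobin.

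The 5 Serpina3 genes lie in 1 cluster on mouse chromosome 12 (GRCm39), with other genes of the family between them, in the order Serpina3f (104180772 to 104187388), Serpina3g (104202386 to 104208203), Serpina3i (104229363 to 104238677), Serpina3m (104304745 to 104361078) and Serpina3n (104372810 to 104380597), all on the plus strand. Aligned coding sequences of Serpina3n and the other four were identical at 85.1% to 86.1% of positions. The differences were not spread evenly. The most variable stretch of 84 bases, which lies in the last exon where serpins encode the reactive centre loop, is printed below 5′ to 3′ from GRCm39 because it is what best tells these copies apart. Capitals mark the positions at which the 5 genes are not all alike.
Serpina3n, chr12:104379722-104379805, plus strand: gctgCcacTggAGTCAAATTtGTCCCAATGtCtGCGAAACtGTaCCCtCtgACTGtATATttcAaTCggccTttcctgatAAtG
Serpina3g, chr12:104207346-104207429, plus strand: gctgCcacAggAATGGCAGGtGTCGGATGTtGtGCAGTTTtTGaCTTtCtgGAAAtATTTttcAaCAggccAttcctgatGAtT
Serpina3f, chr12:104186519-104186605, plus strand: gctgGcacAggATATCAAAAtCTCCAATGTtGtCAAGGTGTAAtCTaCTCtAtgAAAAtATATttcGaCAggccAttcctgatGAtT
Serpina3i, chr12:104234754-104234837, plus strand: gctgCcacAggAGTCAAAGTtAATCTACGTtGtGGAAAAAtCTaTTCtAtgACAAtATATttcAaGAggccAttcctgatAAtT
Serpina3m, chr12:104360043-104360126, plus strand: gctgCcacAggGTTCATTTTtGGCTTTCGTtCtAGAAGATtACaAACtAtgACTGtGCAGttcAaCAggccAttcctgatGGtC

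In this window 49 of 84 aligned positions (58.3%) varied among the 5 genes, against 149 of 567 (26.3%) in the rest of the aligned coding sequence. The annotated coding sequence of Serpina3g is short, at 747 bases against 1227 to 1338 in the others. Positions that it lacks are not in these counts. Serpina3g matched Serpina3n at 61.9% of the window and at 87.5% outside it, and Serpina3i at 72.6% and 86%. The window was picked as the most variable, so the contrast is a description. The similarity bears on the counts. Of all 31-base words in the Serpina3n transcript, 19.5% also occur in another gene of the cluster, and the share was 27.1% for Serpina3g, 24% for Serpina3f, 17.5% for Serpina3i and 15.8% for Serpina3m. Only 5.87% of the Serpina3g words and 2.04% of the Serpina3i words occur in Serpina3n itself. Reads in shared stretches can be split between the copies, so low values of Serpina3f, Serpina3i and Serpina3m are uncertain while Serpina3n is high. The annotated model of Serpina3m also overlaps part of Serpina3k and contains the pseudogene Serpina3l-ps, and that of Serpina3g contains the pseudogene Gm56487.

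Upstream sequences were found in the RefSeq promoter table (GRCm39) for 6 of the 8 genes, and not for Serpina3m and Hp. The 250 bases before each start were searched on both strands for the STAT motif TTCNNNGAA, the C/EBP motif TTGCNNAA and the NF-kB consensus. These occurred in 7.0%, 9.6% and 7.3% of 32851 promoters. The parts that lie outside annotated exons are shown for 4 genes of the cluster. Those of Serpina3g, Serpina3i and Serpina3f resemble each other around the motifs, which are in capitals. The part shown for Serpina3n holds no motif, and it ends before the stretch of its window that resembles them.
Serpina3g, chr12:104202236-104202385, plus strand: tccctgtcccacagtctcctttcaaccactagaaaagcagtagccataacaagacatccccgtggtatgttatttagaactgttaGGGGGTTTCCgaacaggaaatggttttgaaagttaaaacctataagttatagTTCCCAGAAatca
Serpina3i, chr12:104229213-104229362, plus strand: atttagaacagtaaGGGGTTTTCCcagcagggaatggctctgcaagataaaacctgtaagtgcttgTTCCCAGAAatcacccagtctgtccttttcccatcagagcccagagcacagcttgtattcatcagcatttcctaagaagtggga
Serpina3f, chr12:104180622-104180771, plus strand: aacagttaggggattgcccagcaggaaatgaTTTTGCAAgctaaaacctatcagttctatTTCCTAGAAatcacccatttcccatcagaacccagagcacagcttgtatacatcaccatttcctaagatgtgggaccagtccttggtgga
Serpina3n, chr12:104372717-104372809, plus strand: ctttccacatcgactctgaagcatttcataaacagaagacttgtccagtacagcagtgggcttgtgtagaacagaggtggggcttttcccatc

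Serpina3g and Serpina3i each held an NF-kB consensus followed by a STAT motif, and Serpina3f held a C/EBP motif before a STAT motif and another C/EBP motif (TTCAGCAA) after it, past the annotated start of the gene and so outside the bases shown. Lcn2 (TTGCTCAA) and Saa3 (TTATGCAA, the motif read on the other strand) each held 1 C/EBP motif, which in both lies inside the gene as annotated, because the GENCODE start is further upstream than that of RefSeq. In the 250 bases of Serpina3n none of the 3 motifs was found. Past the bases shown, they hold ttaccagaaatcatccagtctgt, where Serpina3i has TTCCCAGAAatcacccagtctgt. There, ttaccagaa differs from the STAT motif by 1 letter. A match describes letters in a window and does not show that a factor binds there.

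Ceacam1 was examined first, as a check of the genotype labels. Without laser, wild type libraries had 958, 5027, 1243 and 4596 normalized counts and Ceacam1-/- libraries 405, 505, 508 and 1171, so that the groups overlapped. With laser, wild type libraries ranged from 774 to 8367 (median 996) and Ceacam1-/- libraries from 67.8 to 905 (median 335), with 1 Ceacam1-/- library inside the wild type range. The values sum over the whole gene, including exons that the deletion leaves in place, and reads within the deleted exons could not be separated, so they check the labels only in part. The libraries with the most Ceacam1 in their group were also high in summed surface epithelium markers. Wild type libraries 22 and 27, at 5027 and 4596 for Ceacam1, had sums of 291714 and 69052, against 114 and 109 in libraries 21 and 26. The part of surface epithelium in these values was not tested. The log2 difference between genotypes was -1.95 ± 0.60 (SE) without laser and -2.17 ± 0.52 with laser, and neither passed the threshold after adjustment (limma, adjusted p = 0.999 and 0.104).

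In its cell sorting methods the study uses choroid as a short name for pigment epithelium, choroid and sclera together. Markers of such tissue were abundant in the libraries, with endothelial Plvap, melanocyte Dct and pigment epithelium Rpe65 above 0 throughout. Other eye tissues were present in unequal amounts. The summed level of 8 photoreceptor markers ran from 3118 normalized counts in Ceacam1-/- library 25 (no laser) to 979716 in Ceacam1-/- library 18 (laser). It was above 500000 in 5 libraries. These were Ceacam1-/- laser libraries 14 (911087), 15 (520980) and 18 (979716), wild type library 21 without laser (524258) and Ceacam1-/- library 23 without laser (570380). Libraries 14, 15 and 18 also had the 3 lowest summed macrophage markers of the laser groups, at 27086, 24258 and 16311 against 48622 to 128190 in the other 13. Choroid content was low in the same libraries. Melanocyte markers summed to 10355, 27412 and 9580 in libraries 14, 15 and 18 against 91629 to 184403 in the other 4 Ceacam1-/- laser libraries, pigment epithelium markers to 28965 to 57380 against 158235 to 285552, and fibroblast markers to 45447 to 110283 against 423932 to 670099. Skeletal muscle markers, led by Acta1, summed to 287832 to 566501 in wild type without laser and 75861 to 316810 with laser, and to 51581 to 969807 and 14723 to 212072 in Ceacam1-/- mice. Surface epithelium markers, led by Krt15, ran from 106 to 393501 over all libraries. The part of these tissues in the results was not tested. Some of the results below are also given without these 5 libraries, a choice made after the marker sums had been seen. In bulk tissue, fewer cells of a type and less RNA per cell cannot be told apart.

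With laser, the mean of each of the 8 genes was above the mean without laser in both genotypes. The separation was complete for Serpina3n, Lcn2 and Saa3 in both genotypes and for Serpina3i in wild type, where every laser library was above every library without laser. That is 4 of 8 genes in wild type and 3 of 8 in Ceacam1-/- mice, and 6 of the 8 passed the filter on low values. Serpina3i and Serpina3m did not pass it, so they are not among the genes tested. Among the 19950 genes tested, 4.5% separated in this way in wild type and 1.17% in Ceacam1-/- mice. Because the genes were chosen for their response to laser, nothing is read from that difference.

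**Figure D1:**
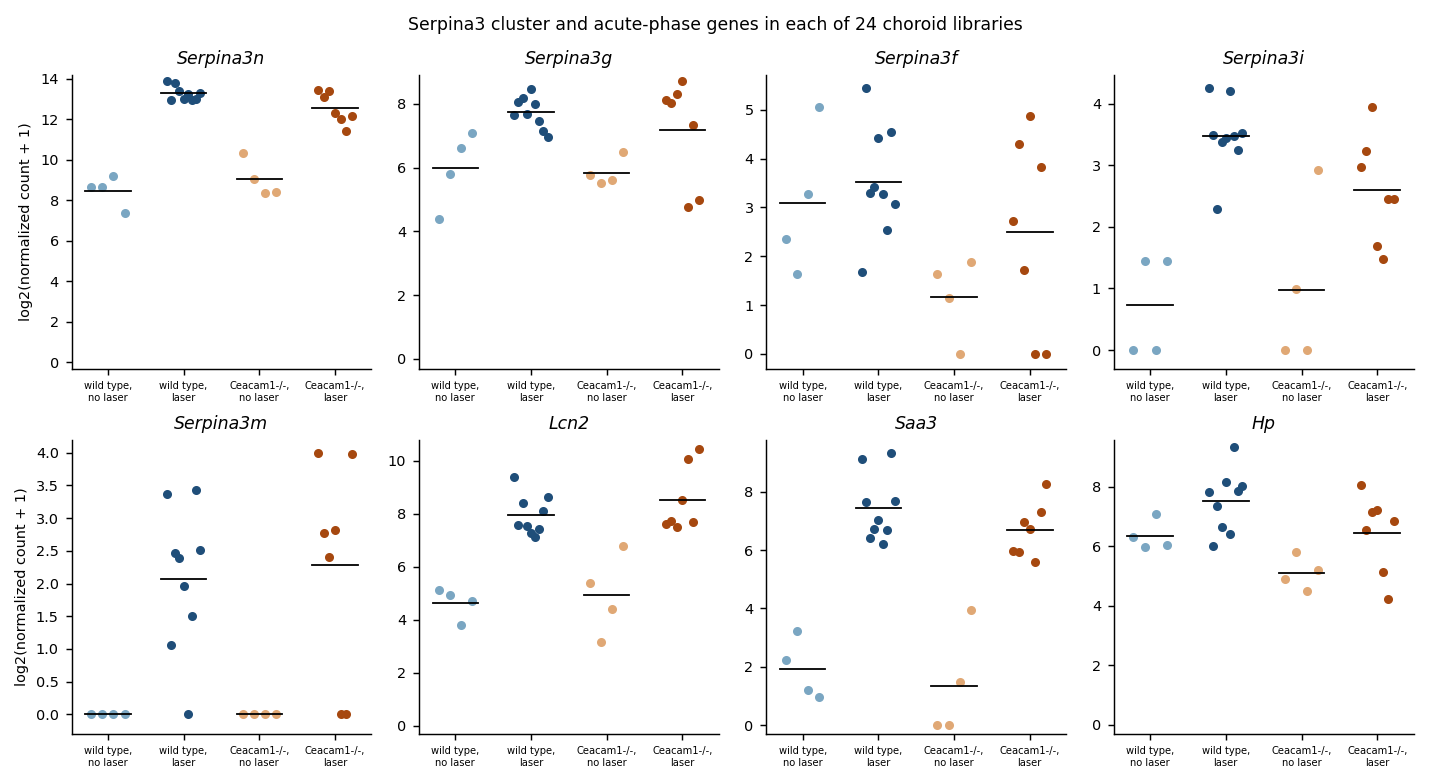
Each point is 1 library, the horizontal axis gives the 4 groups, the vertical axis is log2(normalized count + 1), and the bar is the group mean on that scale. Serpina3n, Lcn2 and Saa3 show no overlap between laser and no laser in either genotype, whereas Serpina3f and Hp overlap in both.

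Serpina3n was the most abundant member. Wild type libraries without laser had 404, 406, 598 and 163 normalized counts, and Ceacam1-/- libraries without laser had 1277, 524, 332 and 339. With laser, wild type libraries ranged from 7858 to 15137 (median 9815, n = 9) and Ceacam1-/- libraries from 2706 to 11229 (median 5165, n = 7). No laser library of either genotype fell as low as the highest library without laser. Group means were 393 ± 178 (SD) and 10241 ± 2722 in wild type and 618 ± 448 and 6782 ± 3456 in Ceacam1-/- mice, ratios of 26.1 and 10.97, the latter 17.03 without library 23. On the scale of log2(value + 1) the laser difference was 4.80 ± 0.38 (SE) in wild type and 3.52 ± 0.40 in Ceacam1-/- mice. Without the 5 libraries high in photoreceptor markers these were 4.86 ± 0.31 and 4.47 ± 0.36.

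Serpina3g, whose product is an intracellular serpin of immune cells, was the only other Serpina3 gene well above background. Wild type libraries had 19.8, 54.9, 98.2 and 136 normalized counts without laser and 125 to 353 with laser (median 207). Ceacam1-/- libraries had 53.3, 44.8, 47.5 and 90.0 without laser and 26.02 to 417 with laser (median 263). The Ceacam1-/- laser group was split. Libraries 14 and 18 had 26.02 and 30.6, below every Ceacam1-/- library without laser, and library 15 had 161, while the other four had 263 to 417. The laser difference was 1.76 ± 0.61 (log2, SE) in wild type and 1.33 ± 0.64 in Ceacam1-/- mice. When the 5 libraries were left out it became 1.23 ± 0.32 and 2.42 ± 0.37.

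Serpina3f, Serpina3i and Serpina3m were scarce. Serpina3f had 4.13, 2.11, 8.67 and 32.5 normalized counts in wild type without laser, and 2.19 to 42.7 with laser (median 8.76). Ceacam1-/- libraries held 2.11, 1.21, 0 and 2.69 without laser, and 0 to 28.5 with laser (median 5.60). Its groups overlapped in both genotypes. The wild type laser difference of 0.44 ± 0.86 turned to -0.04 without library 22 and to -0.76 with array weights, which down-weight libraries that deviate. Serpina3i was at 0, 1.71, 0 and 1.74 in wild type without laser and at 3.87 to 18.1 with laser, and in Ceacam1-/- mice at 0, 0.98, 0 and 6.57 without laser and at 1.78 to 14.5 with laser. Serpina3m was listed at 0 in all 8 libraries without laser. It was above 0 in 8 of 9 wild type laser libraries, up to 9.77, and in 5 of 7 Ceacam1-/- laser libraries, up to 15.0.

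Most of the rest of the cluster was nearly silent. Serpina3a, Serpina3b, Serpina3j, Serpina3k, Serpina3d-ps, Serpina3e-ps and Serpina3l-ps had group means of at most 1.28 normalized counts. Serpina3c had group means of 7.32 to 11.3. The annotation names 2 genes Serpina3h, and the long noncoding one (ENSMUSG00000121484) had group means of 3.82 and 13.1 in wild type and 7.20 and 16.1 in Ceacam1-/- mice, without and with laser. It was the only one of these 10 to be tested in the laser comparisons. Its laser differences of 1.98 (wild type) and 1.21 (Ceacam1-/-) did not pass the threshold. The pseudogene (ENSMUSG00000041449) was at 9.96 in 1 wild type laser library and at most 2.73 in the other 23.

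Per kilobase of transcript, Serpina3n made up 76% ± 22.9 (SD) of the cluster's level in wild type without laser and 97% ± 1.15 with laser. For Ceacam1-/- mice the shares were 84.5% ± 10.5 and 95.8% ± 3.03. The lowest share in any library was 42.3%, in wild type without laser, where the value of Serpina3n was itself lowest. The share of laser libraries ran from 90.6% to 98.9%.

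**Figure D2:**
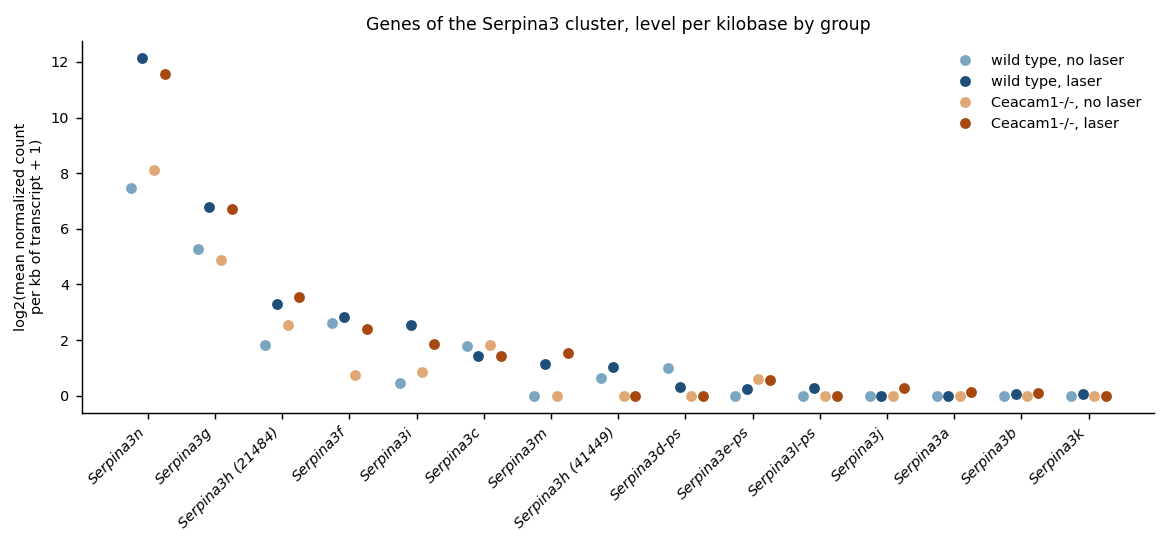
Points give the group mean as log2(normalized count per kilobase of transcript + 1) for each Serpina3 gene on the horizontal axis, ordered by level, with 1 colour for each of the 4 groups. Serpina3n stands far above the other genes in every group, and from Serpina3j onwards the genes sit near 0.

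Lcn2 had 33.9, 29.8, 12.97 and 25.2 normalized counts in wild type without laser and 137 to 670 with laser (median 191). Ceacam1-/- libraries had 40.4, 7.91, 20.2 and 109 without laser and 179 to 1375 with laser (median 212). The highest values, 1061 and 1375, were in libraries 14 and 18, the same 2 libraries in which Serpina3g was lowest. The other 5 Ceacam1-/- laser libraries had 179 to 365, within the wild type laser range. Group means stood in ratios of 10.97 (wild type) and 11.6 (Ceacam1-/-), with log2 differences of 3.29 ± 0.60 and 3.58 ± 0.62. The Ceacam1-/- ratio was 22.5 without library 28, the highest without laser, and 5.21 without libraries 14 and 18.

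Saa3 was close to 0 without laser, at 3.68, 8.35, 1.31 and 0.97 normalized counts in wild type and 0, 0, 1.78 and 14.5 in Ceacam1-/- mice. With laser it ranged from 73.6 to 639 in wild type (median 132) and from 47.4 to 310 in Ceacam1-/- mice (median 106). No laser library fell into the range without laser. In the main fit, the log2 differences of 5.53 ± 0.70 and 5.33 ± 0.73 were the largest of the 6 genes that passed the filter. This rank did not hold under every alternative run. In wild type the lowest Saa3 difference was 3.794, whereas Serpina3n stayed between 4.428 and 5.499. In Ceacam1-/- mice the lowest Saa3 difference was 3.122, below every value of Serpina3n. The Saa3 differences depend on values near 0, and in Ceacam1-/- mice 1 library, number 28, holds most of the level without laser. In wild type the Saa3 ratio of group means was 65.3, and 117.6 without library 22. In Ceacam1-/- mice the ratio was 30.5, then 209 without library 28 and 16.25 without libraries 14, 15, 18 and 23. Without libraries 14, 15, 18 and 23 the ratio of Serpina3n was 22.64, above that of Saa3.

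Hp had the smallest ratios of the 3 acute-phase genes, and its groups overlapped. Wild type libraries had 78.4, 61.8, 134 and 64.8 normalized counts without laser and 64.2 to 641 with laser (median 225), and 6 of 9 laser libraries were above all 4 without laser. Ceacam1-/- libraries had 28.9, 54.7, 21.7 and 35.8 without laser and 17.8 to 266 with laser (median 115), with 5 of 7 above all 4. Ratios of group means were 2.70 and 3.31. Every Ceacam1-/- library without laser was below every wild type library without laser. The share of all genes that separate between genotypes in this way was not counted, and the difference did not pass the threshold.

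Ordered by mean level per kilobase in wild type with laser, Serpina3n (4549 ± 1209 normalized counts per kilobase, SD) came first. Lcn2 (305 ± 187), Saa3 (232 ± 211), Hp (170 ± 130) and Serpina3g (108 ± 35.7) followed, then Serpina3f (6.19 ± 5.53), Serpina3i (4.76 ± 1.92) and Serpina3m (1.22 ± 0.97). From Lcn2 to Serpina3g each neighbour lies within the SD of the one before it. Without laser the order in wild type was Serpina3n (175 ± 79.2), Hp (62.9 ± 24.9), Serpina3g (37.2 ± 24.4) and Lcn2 (27.8 ± 9.91), while Saa3 (3.55 ± 3.38) was below Serpina3f (5.19 ± 6.14). The mean normalized count of Serpina3f fell from 11.85 to 4.97 without library 27, so the order of these last genes rests on that library.

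Genotypes were compared next, without and with laser. None of the members tested passed the threshold in either comparison. With laser, where 0.0202% of 19757 genes passed (0.0101% higher and 0.0101% lower) and 22.7% had an unadjusted p under 0.05, the log2 difference of Serpina3n was -0.73 ± 0.27 (limma, unadjusted p = 0.0165, adjusted p = 0.164). Of the Ceacam1-/- laser libraries, 4 of 7 lay below all 9 wild type laser libraries. The values that differ most are those of libraries 14, 15 and 18, at 4091, 2706 and 4605, and the difference was -0.20 ± 0.23 without the 5 libraries high in photoreceptor markers (adjusted p = 0.880). The part of photoreceptor RNA in this difference was not tested beyond these values and a covariate, with which it was -0.43 ± 0.26.

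The other members were further from the threshold with laser. The log2 difference of Ceacam1-/- from wild type was -1.06 ± 0.54 for Hp (limma adjusted p = 0.245), -1.03 ± 0.76 for Serpina3f (0.399), -0.75 ± 0.49 for Saa3 (0.348) and -0.56 ± 0.52 for Serpina3g (0.511). For Lcn2 it was 0.57 ± 0.46 (0.444). Without the 5 libraries the sign turned for Serpina3g, to 0.56 ± 0.26, and for Lcn2, to -0.10 ± 0.37. Hp was then at -0.27 ± 0.50, Serpina3f at -0.12 ± 0.71 and Saa3 at -1.03 ± 0.54.

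Without laser, 0% of 20057 genes passed and 1.53% (307) had an unadjusted p under 0.05. The study did report genes that differed between wild type and Ceacam1-/- choroid, with DESeq2 and sex as a covariate. Here sex could not be used and Ceacam1 itself did not pass, so the 0% does not show that no gene differs. Hp was -1.25 ± 0.43 in Ceacam1-/- mice relative to wild type (limma, unadjusted p = 0.0183, adjusted p = 0.999), with no overlap between 4 and 4 libraries. The difference was -1.20 ± 0.53 without libraries 21 and 23 and -0.69 ± 0.36 with array weights. Serpina3n was 0.56 ± 0.52, Lcn2 0.28 ± 0.77 and Serpina3g -0.13 ± 0.60, each with an adjusted p of 0.999. Over the alternatives run, this difference of Serpina3n ranged from 0.13 to 1.12. Serpina3f, Serpina3i, Serpina3m and Saa3 were under the filter in these 8 libraries and were not tested.

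The interaction is the laser difference in Ceacam1-/- mice minus that in wild type. It is built from the laser values by which the genes were chosen, so the members' interactions are a description. Over all genes, none passed (0% of 19950, limma), and 6.22% (1241) had an unadjusted p under 0.05. Serpina3n had an interaction of -1.28 ± 0.55, and of -0.39 ± 0.48 without the 5 libraries. The other 5 tested members had interactions from -0.43 ± 0.88 (Serpina3g) to 0.89 ± 1.25 (Serpina3f). Over the alternatives run, the interaction of Serpina3f ranged from 0.42 to 3.15 and that of Hp from -0.076 to 0.93. With standard errors of this size the values do not show that the genotypes respond alike.

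**Figure D3:**
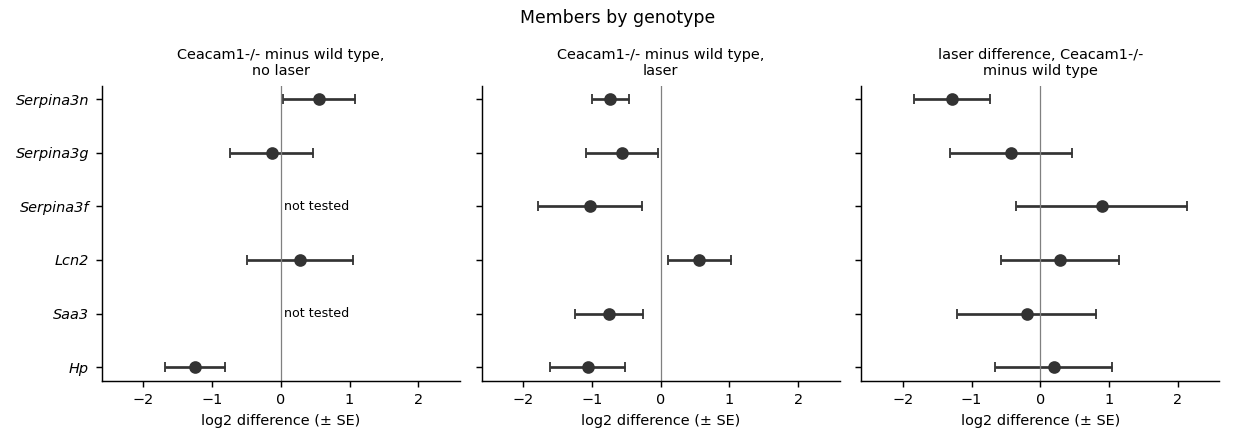
Points are log2 differences on the scale of log2(value + 1) and bars are standard errors, for Ceacam1-/- minus wild type without laser (left), with laser (middle) and for the laser difference in Ceacam1-/- minus that in wild type (right). With laser 5 of the 6 members lie below 0 and Lcn2 lies above it, and no member passed the threshold between genotypes without or with laser.

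**Figure D4:**
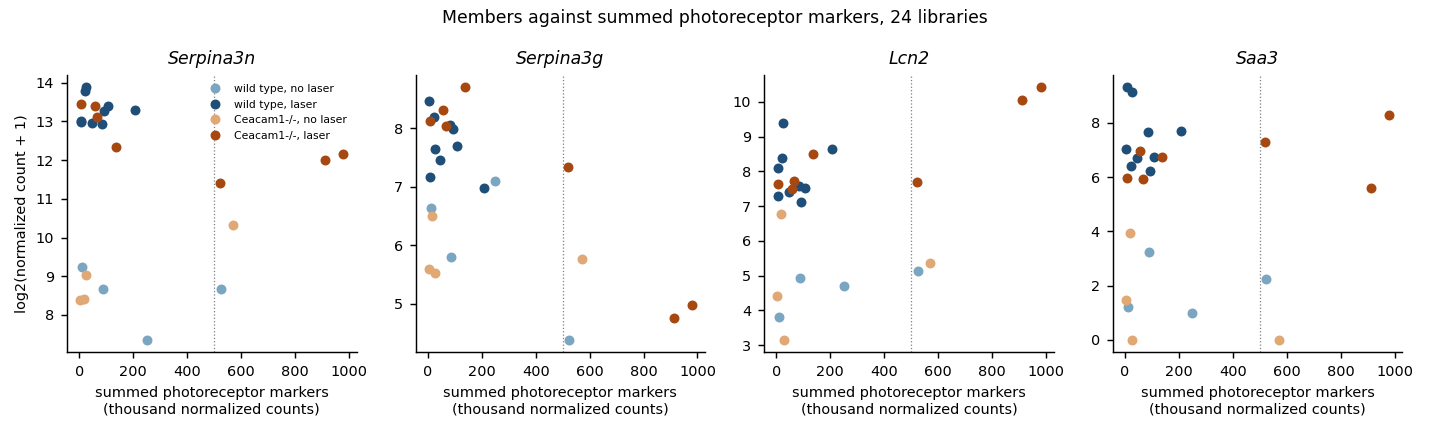
Each point is 1 library. The horizontal axis is the sum of 8 photoreceptor markers, the vertical axis is log2(normalized count + 1), and the dotted line marks 500000. Of the 3 Ceacam1-/- laser libraries to its right, 2 have the lowest Serpina3g and the highest Lcn2 of their group, and Serpina3n is lower in all 3 than in the other Ceacam1-/- laser libraries.

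Within groups the members did not vary together as 1 block. After the group mean was subtracted from log2(value + 1), Serpina3f and Serpina3g had a Pearson r of 0.71 over 24 libraries, Serpina3m and Hp 0.66, and Lcn2 and Saa3 0.55. Lcn2 and Serpina3g had an r of -0.51. Serpina3n had an r of 0.41 with Hp, 0.41 with Serpina3m, 0.18 with Serpina3g, -0.15 with Lcn2 and -0.25 with Saa3. These values describe libraries that share tissue makeup, and Serpina3f and Serpina3m rest on few reads. Summed macrophage, fibroblast and melanocyte markers had an r of 0.78, 0.78 and 0.80 with Serpina3g, and summed Müller glia and astrocyte markers an r of 0.60 with Serpina3n. The most abundant gene of that last sum was Apoe, which macrophages and pigment epithelium also make.

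By the same measure, the 10 genes most like Serpina3n among 15545 ranked were Cnp, Gpr37l1, S1pr3, Ptn, Apln, Galnt6, Gatm, Ugt8a, Gna12 and Enpp6, with r from 0.87 to 0.82. Cnp and Ugt8a belong to myelin-forming cells and Gpr37l1 to astrocytes. Of these 10, only Galnt6 was higher with laser in wild type (log2 difference 2.47 ± 0.59, limma adjusted p = 0.0138), and none passed in Ceacam1-/- mice, where Cnp was at -0.65 ± 0.57. The 5 most like Hp were Adipoq (0.85), Cfd (0.80), Cyp1b1 (0.79), Cyp2e1 (0.78) and Susd2 (0.73), of which Adipoq encodes adiponectin and Cfd adipsin, both known from fat cells. None of these 5 passed the threshold with laser. Lcn2 was most like Ccdc88b, Zfp462, Atxn7l3, Macroh2a1 and Acvr1b (0.79 to 0.78), and Saa3 most like Ier3, Gm56743, 1110038B12Rik, Gtf2f1 and Chmp2a (0.76 to 0.73).

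Other acute-phase genes were examined next, as a list of 36, of which 22 passed the filter. With laser, 5 rose in wild type and none fell. Of all 19950 genes tested, 5.28% passed there (4.23% higher and 1.05% lower), and 20% had an unadjusted p under 0.05. The median log2 difference of the 22 was 0.68, beside -0.10 over all genes. Il1rn, the interleukin-1 receptor antagonist, had 17.8 to 539 normalized counts in wild type without laser and 582 to 2668 with laser (3.89 ± 0.91, adjusted p = 0.0115). Cd14 (2.37 ± 0.38), complement factor Cfb (1.88 ± 0.35) and the protease inhibitor A2m (1.82 ± 0.39) also rose.

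In Ceacam1-/- mice 4 of the 22 rose, among them Il1rn, Cd14 and Cfb, and complement gene C4b fell by 1.00 ± 0.28 (limma adjusted p = 0.0496), where 3.72% of all genes passed (2.07% higher and 1.65% lower) and 20% had an unadjusted p under 0.05. With quantile normalization 3 rose and none fell, and with upper-quartile scaling 4 rose and none fell. The median of the list was 0.09, beside 0.02 over all genes. No gene of the list passed when only the Ceacam1-/- libraries entered the fit, 1 passed without library 25, 2 without library 24 and 3 without library 5 or any of 9 wild type libraries. Il1rn, which epithelia also make, ran from 11.96 to 1102 in Ceacam1-/- libraries without laser and from 375 to 2274 with laser, so that the groups overlapped. C3 and Lrg1 had log2 differences of 1.28 and 1.26 in wild type and 0.97 and 0.65 in Ceacam1-/- mice, which did not pass. The 4 most abundant of the list, Ttr, Trf, Mt1 and Serping1, did not pass in either genotype, and Ttr is also made by the pigment epithelium.

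Several genes made mainly by the liver were nearly absent. Alb, Fga, Fgb, Apcs, Saa4 and Ahsg had group means of at most 1.27 normalized counts, Fgg and Serpina1a were at 0 in every library, and Saa1 and Saa2 had group means of at most 4.78 and 1.66. Others of this kind were present, with group means of 16.8 to 25.3 for Hpx, 8.93 to 18.6 for Orm1, 62.6 to 104 for Itih3 and 1142 to 2397 for Lbp, and none of these 4 passed with laser in either genotype. Of the 8 hepatocyte markers only Cyp2e1 passed the filter. Summed hepatocyte markers, nearly all Cyp2e1, had an r of 0.73 with Hp within groups. Of 16 genes next to the cluster, Serpina1b, Serpina9, Dicer1 and Clmn were tested and none passed with laser in either genotype.

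The STAT3 list holds ligands, receptors, kinases and target genes of the interleukin-6 family, and its 23 genes all passed the filter. In wild type 7 rose with laser and none fell, with a list median of 0.73. Among the ligands, Osm, which encodes oncostatin M, went from 0 to 11.1 normalized counts without laser to 21.9 to 133 with laser (4.09 ± 0.72, adjusted p = 0.00112). Il6 went from 0 to 10.2 to 9.95 to 78.5 (3.08 ± 0.64, adjusted p = 0.00516), with a slight overlap. Osm and Il6 passed the filter on low values only through the laser libraries, where they were high, so genes that entered in this way had to differ. The receptor Osmr rose by 1.14 ± 0.28 and Stat3 itself by 0.59 ± 0.13. The target genes Socs3, a feedback inhibitor, and Cebpd rose by 1.19 ± 0.25 and 1.02 ± 0.29. The receptor chains Il11ra1, the most abundant gene of the list, Il6st and Lifr and the kinases Jak1 and Jak2 did not pass. Without library 21, 3 genes of the list passed, and 7 did without all 5 libraries high in photoreceptor markers.

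In Ceacam1-/- mice 3 of the 23 rose and none fell, with a list median of 0.27. They were Il6 (2.97 ± 0.67), Lif (2.02 ± 0.54) and Socs3 (0.99 ± 0.26), with adjusted p of 0.0153, 0.0380 and 0.0327. Osm was at 1.90 ± 0.75, which did not pass. No gene of this list passed when the fit held only Ceacam1-/- libraries or when library 25 was left out, and 1 passed without library 24, 5 or 6. Without library 28, or without the 5 libraries, 5 passed. The interaction passed for none of the 23, so that a difference between genotypes was not shown.

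Of 17 genes of the NF-kB and interleukin-1 list, 16 passed the filter and Il17a was at 0 in every library. Il1b (1.89 ± 0.53), the receptor Il1r1 (1.20 ± 0.25) and the tumour necrosis factor receptor Tnfrsf1b (1.59 ± 0.38) rose in wild type. Of these, Il1b rose in Ceacam1-/- mice (2.66 ± 0.56, limma adjusted p = 0.00983), from 5.35 to 64.4 normalized counts without laser to 39.3 to 185 with laser, but not when library 24 or 25 was left out, and 2 genes passed without library 23 or 18. The 4 most abundant genes of the list, Nfkbia, Tnfrsf1a, Rela and Tnfaip3, did not pass in either genotype. List medians were 0.73 and 0.31. In wild type 1 gene of the list passed without library 21 or 27 and 5 without library 14, and without the 5 libraries the list had 6 such genes in wild type against 4 in Ceacam1-/- mice.

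**Figure D5:**
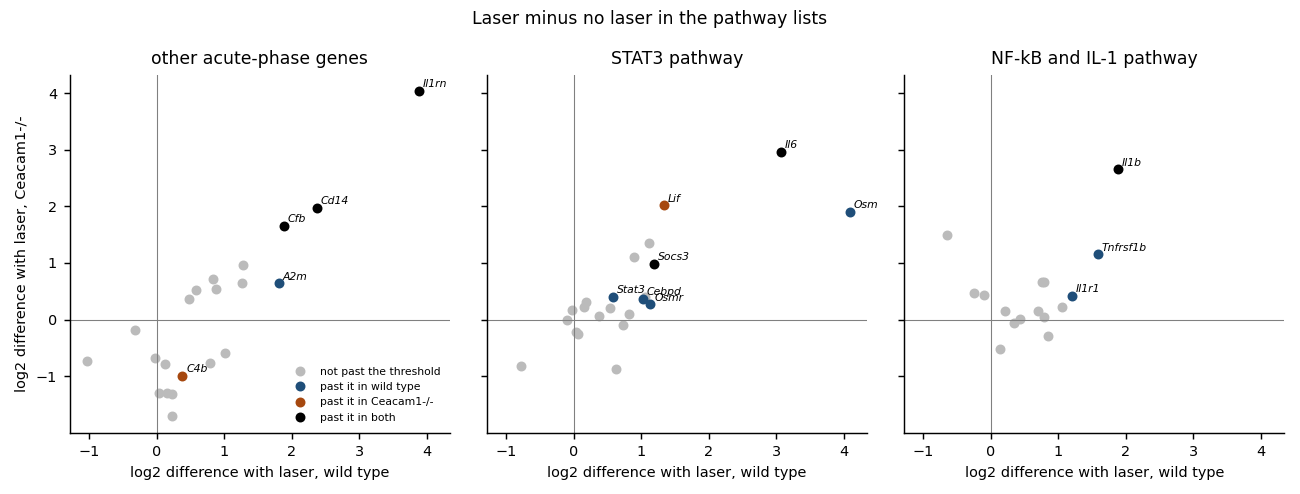
Each point is a gene of the list that is reported here, with the log2 difference of laser minus no laser in wild type on the horizontal axis and in Ceacam1-/- mice on the vertical axis, on the scale of log2(value + 1), and colours give the genotype in which the adjusted p was under 0.05. Il1rn, Il6 and Il1b are past the threshold in both genotypes, and most genes of the 3 lists are grey.

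Receptors and targets of the members were the last list, of which 21 of 24 were tested and 3 rose in each genotype. Mmp9, the protease that lipocalin 2 binds, rose by 3.45 ± 0.58 in wild type and 3.73 ± 0.60 in Ceacam1-/- mice. Hmox1, which degrades the haem of haemoglobin, rose by 2.69 ± 0.32 and 2.00 ± 0.33, and Fpr1, a formyl peptide receptor, by 2.23 ± 0.65 and 2.90 ± 0.68. Fpr1, with group means of 1.92 and 2.68 normalized counts without laser, passed the filter only through the laser libraries, as did Mmp8 among the markers below. The 4 most abundant genes of the list, the matrix protease Mmp2, the lipoprotein receptors Cd36 and Scarb1 and the haemoglobin gene Hba-a2, did not pass in either genotype. The lipocalin receptor Slc22a17 was at -0.23 ± 0.17 and -0.47 ± 0.18, and the haptoglobin scavenger receptor Cd163 at 0.54 ± 0.53 and 0.49 ± 0.55. Of 7 leukocyte serine proteases on the list, Elane and Ctsg were under the filter, with overall means of 0.30 and 1.66 normalized counts. The mast cell proteases Cma1 and Mcpt4 had group means of 142 to 293 and 97.9 to 251, the granzymes Gzma and Gzmb of 19.8 to 31.7 and 5.64 to 18.2, and Prtn3 of 5.21 to 25.5. None of these 5 passed with laser in either genotype, and Prtn3 was at 1.93 ± 0.59 in wild type and 1.85 ± 0.61 in Ceacam1-/- mice.

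Several markers of inflammatory cells moved with the same comparison. Of 10 macrophage and monocyte markers, 9 rose in wild type and 6 in Ceacam1-/- mice. Their sum, mostly Lyz2, was 10649 to 21936 normalized counts in wild type without laser and 48622 to 128190 with laser, and 11155 to 15289 and 16311 to 90656 in Ceacam1-/- mice. Of 13 neutrophil markers, 8 were tested and 3 rose in wild type (Mmp8, S100a8 and Csf3r) and 2 in Ceacam1-/- mice (Mmp8 and S100a8). Their sum, led by Ltf, was 232 to 369 without and 568 to 2661 with laser in wild type. In Ceacam1-/- mice it was 316 to 746 and 333 to 1412. Ltf itself had medians of 69.1 without and 66.3 with laser in wild type, and 54.9 and 31.03 in Ceacam1-/- mice. The highest Ltf value, 2074.6, was in wild type laser library 19, where surface epithelium markers summed to 102179. The part of surface epithelium in that value was not tested. Of the neutrophil list, Ly6g, Mpo and Elane had group means of at most 0.75. Of 9 Müller glia and astrocyte markers, Vim alone rose, in wild type (1.35 ± 0.33). Lum rose in both genotypes and Col3a1 in wild type among 6 fibroblast markers. No endothelial, pigment epithelium, melanocyte, photoreceptor, skeletal muscle, lens, surface epithelium or erythroid marker passed with laser. The part of cell makeup in the laser values of the members was not tested.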

How the data were processed

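The authors made SMART-Seq libraries from choroid, quantified reads with Salmon 1.10.3 on GRCm39, imported them with tximport and normalized them with DESeq2 1.44.0. The deposited signal values are these normalized counts for 56065 genes, which are not whole reads, so no count test was run. Groups were taken from the sample labels. With limma 3.58.1 in R 4.3.3, log2(value + 1) was fitted for genes with a mean of at least 10, with a variance trend and Benjamini-Hochberg adjustment at 0.05. Laser comparisons and the interaction used all 24 libraries in 4 groups, and genotype comparisons used 8 or 16. Sex, a covariate of the study, is not in the labels. The study removed 1 outlier sample, and the labels do not say whether it is among these 24 libraries. Positions came from GENCODE for GRCm39, and coding sequences were aligned with MAFFT 7.526 and Biopython 1.88. The members and lists were chosen with earlier results of these data known. Named genes were the members, Ceacam1, the cluster, in each list the 4 most abundant and the 4 of lowest p past the threshold, and the genes most like 4 members with a mean of at least 50. The remaining named genes were picked for their known roles after their values were seen. Some genes counted in the lists are not reported here by name and are left out of the plot of the lists. Alternatives were other pseudocounts, filters and scalings, array weights, covariates, fits to fewer or more groups, and the omission of single libraries or of the 5 high in photoreceptor markers.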

Additional observations from a re-analysis of the deposited data

Results flagged for a closer look

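Of 46 sets of group values examined for the members, Ceacam1 and the rest of the cluster, 9 had 1 library far from the others by Dixon's test, which chance alone gives in about 1 in 20. Ceacam1 was at 8367 normalized counts in wild type laser library 19 (next 1776) and at 1171 in Ceacam1-/- library 28 without laser (next 508). Summed surface epithelium markers, of which Krt15 was the most abundant, were 102179 in library 19 and 391658 in library 28. Those 2 sums were the highest of their groups. Wild type libraries 22 and 27 without laser, with Ceacam1 at 5027 and 4596, likewise had the 2 highest sums of their group (291714 and 69052), and the part of surface epithelium in the Ceacam1 values was not tested.

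Library 28 also stood out for Saa3, at 14.5 (next 1.78), and for Serpina3i, at 6.57 (next 0.98). In wild type with laser, Lcn2 was at 670 in library 1 (next 398), Hp at 641 in library 16 (next 289) and Serpina3f at 42.7 in library 2 (next 22.4). The Serpina3h pseudogene was at 9.96 in library 17 (next 1.54). In Ceacam1-/- mice with laser, Saa3 was at 310 in library 18 (next 158), the library with the highest photoreceptor sum.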

How the results depend on the processing

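No paired analysis was possible because the labels give no number that ties a library to an animal. The 24 libraries were fitted as independent samples, which the labels cannot check. No member passed the threshold between genotypes under any alternative run, and the interaction had 0 genes past it under every alternative, with each library left out included. For Serpina3n, the genotype difference with laser ranged from -0.88 to -0.20 and its adjusted p from 0.0694 to 0.880, and the interaction from -1.63 to -0.39. The cause of the changes below was not tested.

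These estimates changed sign. For the genotype difference with laser, Lcn2 turned to -0.10 without the 5 libraries, Serpina3f to 0.19 with array weights, and Serpina3g to 0.32 with array weights, 0.56 without the 5 libraries and 0.074 with the photoreceptor covariate. Without laser, Lcn2 turned to -0.59 with array weights and ranged from -0.34 to 0.87 with 1 library left out, and Serpina3g from -0.66 to 0.24. In the interaction, Lcn2 turned to -0.39 without the 5 libraries and to -0.39 with the covariate. Saa3 turned to 0.13 with a pseudocount of 0.5, 0.14 with array weights, 0.11 with a Y-linked covariate and 0.0040 with the photoreceptor covariate. Serpina3g turned to 1.20 with array weights, 1.19 without the 5 libraries and 0.43 with the covariate. With 1 library left out, interactions ranged from -0.076 to 0.56 for Hp, -0.31 to 0.90 for Lcn2, -0.65 to 0.67 for Saa3 and -0.80 to 0.10 for Serpina3g. The wild type laser difference of Serpina3f turned to -0.76 with array weights and ranged from -0.044 to 0.67 with 1 library left out.

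Counts of genes past the threshold depended on the fit. With laser, 4 genes differed between genotypes, 2 with a mean of at least 50, 297 with array weights, 9 with all groups in the fit, 2 without the 5 libraries, and 4 to 61 with 1 library left out (61 without library 19, 25 without 17, 7 without 4). Without laser the count of 0 became 1 with upper-quartile scaling and 1 with array weights, and was 0 to 1 with 1 library left out. For laser in wild type, 1053 (844 higher) became 6505 with array weights, 2274 with the wild type libraries alone and 1645 without the 5 libraries, and 479 (without library 21) to 1257 with 1 library left out, with 554 without library 27. Of the 6505, 3238 were higher, as were 1588 of the 2274 and 1129 of the 1645. For laser in Ceacam1-/- mice, 742 became 437 with no filter, 3551 with array weights, 38 with the Ceacam1-/- libraries alone and 2923 without the 5 libraries. With 1 library left out it was 148 (without library 25) to 2488 (without 23), with 255 without library 24 and 466 without 5.

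In wild type, array weights gave 13 acute-phase genes, 15 of the STAT3 list and 9 of the NF-kB list. Wild type libraries alone gave 9 acute-phase genes and 8 of the NF-kB list, which held 6 without the 5 libraries. With 1 library left out the 3 lists had 4 to 6, 3 to 9 and 1 to 5. In Ceacam1-/- mice, array weights gave 9, 9 and 5, and Ceacam1-/- libraries alone 0, 0 and 0. No filter and quantile normalization each gave 3 acute-phase genes and 1 of the STAT3 list, and the Y-linked covariate gave 3 acute-phase genes. The STAT3 and NF-kB lists had 5 and 4 without the 5 libraries and 6 and 3 with the photoreceptor covariate. With 1 library left out the 3 lists had 1 to 6, 0 to 5 and 0 to 2.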

Other observations

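The ratio of Serpina3n to Serpina3g within a library, which does not depend on the scaling of that library, was 1.20 to 20.3 in wild type without laser and 23.3 to 80.3 with laser. In Ceacam1-/- mice it was 3.77 to 24.0 without laser and 12.4 to 157 with laser, and the 2 highest values, 157 and 150, were in libraries 14 and 18. In the same 2 libraries Lcn2 amounted to 25.9% and 29.9% of the normalized count of Serpina3n, against 1.65% to 7.61% in the other 5 Ceacam1-/- laser libraries and 1.39% to 4.43% in wild type with laser. Without laser the share was 2.17% to 15.5% in wild type and 1.51% to 32.2% in Ceacam1-/- mice.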
